A study of Mus musculus with 38 samples.

Results

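Base-unpairing regions (BURs) are double-stranded stretches of the genome, rich in A and T, that separate into single strands with little energy under torsional stress. SATB1, the special AT-rich sequence-binding protein, is a nuclear organizer that binds such DNA directly and is known from thymocytes, neurons and the basal keratinocytes of the epidermis. In the epidermis it has been studied in connection with the folding of the epidermal differentiation complex, the cluster of genes that build the cornified layer. Every BUR in a mouse genome can be offered to SATB1 on naked DNA, whereas in a nucleus SATB1 meets chromatin, and the question examined here was which BURs carried SATB1 in skin cells. The members were the BURs with a skin SATB1 peak overlapping them by at least 1 bp in both skin peak lists, compared with the BURs with a peak in neither list.

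Of 38 samples in the series, 11 had a peak list. The BUR reference map came from 1 library, with no replicate: genomic DNA of mouse thymocytes was sonicated to 300 to 600 bp, bound in solution by recombinant His-tagged SATB1 and sequenced. The 2 skin lists came from primary epidermal keratinocytes of Satb1+/+ mice, strain C57BL/6 in the labels, by urea ChIP-seq with the rabbit polyclonal SATB1 antibody 1583D. In urea ChIP-seq, crosslinked chromatin is first centrifuged through 8 M urea, which removes proteins that are not crosslinked to DNA, and only then immunoprecipitated. The labels of the 2 skin samples share an experiment number, so the spread between them may be technical, and they give the age as postnatal day 13 in one field and 5 in another, while the study's methods describe newborn skin of C57BL/6J mice. The series compared these cells with thymocytes and brain, of which the urea SATB1 lists (2 each) are used below, as are 1 skin urea CTCF list and the 2 thymus SATB1 lists made by standard ChIP-seq. These mice were also wild-type, at 5 and 6 weeks for brain and postnatal day 13 for thymus by the labels, although 1 standard list and the thymus CTCF list have 6w in their titles, so for brain, tissue and age cannot be told apart. Peak lists carry no read counts, so the depth of each library was unknown, no counting interval could be given, and no expression value was at hand to check the cell type against its markers. No test was run, because the BURs of 1 map are not replicates of a condition. The main shares and differences are therefore given for both skin lists together and with each alone, with the SD of the 2 lists. Other shares are for both lists together unless the single lists are named.

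The map held 238380 BURs, of which 232068 lay on chromosomes 1 to 19 and X. On those chromosomes the skin lists held 10982 and 10611 peaks (replicates 1 and 2), and 78.5% and 79.6% of them lay on a BUR. Replicate 1 covered 8614 BURs (3.71%) and replicate 2 covered 8445 (3.64%), a mean of 3.68% ± 0.0515 (SD, n = 2). A peak in both lists was found at 7236 BURs (3.12%), called bound below, in only 1 list at 2587, and in neither at 222245. Of the BURs in one list, 84.0% (replicate 1) and 85.7% (replicate 2) were also in the other. SATB1 in skin thus covered about the same small set of BURs in both libraries. By construction the bound BURs had skin peaks in both lists. Their median skin fold enrichment, the ratio of ChIP signal to local background that the peak caller gives at a peak, was 10.1 and 9.62. Just outside the definition, BURs with a peak in replicate 1 only had a median fold of 5.24 and those in replicate 2 only of 5.12. Their median −log10 q, the caller's false-discovery measure, was 9.33 and 9.03, beside 34.8 and 31.4 for the bound BURs. Over the 7236 bound BURs, which are shared by both lists, the log2 fold enrichments had a Pearson correlation of 0.92, given as a description.

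The sequences below are 300 bases of the plus strand of mm9 around the in vitro summit of 9 BURs, with each 6-letter palindrome TAATTA in capitals. The first 3 are the bound BURs with the highest skin fold outside regions where all 11 lists had a peak. The next 3 are bound BURs nearest to epidermal genes: a coding exon of Satb1, an intron of Lgr5, a receptor of hair follicle stem cells, and an intron of Itga6, the integrin alpha 6 subunit of hemidesmosomes. The seventh, in an intron of Zfp68, held the most TAATTA of any bound BUR and was picked after its value was seen. The last 2, near Akap13 and Lingo1, had the highest in vitro fold of all BURs with no skin peak.
BUR upstream of Nanog, chr6:122647482-122647781: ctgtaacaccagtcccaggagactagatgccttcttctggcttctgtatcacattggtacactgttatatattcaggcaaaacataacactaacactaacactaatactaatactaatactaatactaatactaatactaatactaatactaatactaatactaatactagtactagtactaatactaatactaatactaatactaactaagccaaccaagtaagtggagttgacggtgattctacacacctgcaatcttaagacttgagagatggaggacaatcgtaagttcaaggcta
BUR downstream of Col12a1, chr9:79230158-79230457: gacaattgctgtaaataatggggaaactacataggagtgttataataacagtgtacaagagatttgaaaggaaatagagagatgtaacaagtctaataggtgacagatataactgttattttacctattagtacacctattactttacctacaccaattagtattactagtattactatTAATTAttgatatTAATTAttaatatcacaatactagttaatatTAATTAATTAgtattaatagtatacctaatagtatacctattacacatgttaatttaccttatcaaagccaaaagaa
BUR intron of Ces1e, chr8:95731188-95731487: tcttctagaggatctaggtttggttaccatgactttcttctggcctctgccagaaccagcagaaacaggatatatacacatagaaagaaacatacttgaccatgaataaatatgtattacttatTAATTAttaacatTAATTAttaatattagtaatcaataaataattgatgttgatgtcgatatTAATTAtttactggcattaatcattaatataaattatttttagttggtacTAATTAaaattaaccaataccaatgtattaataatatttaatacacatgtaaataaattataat
BUR coding exon of Satb1, chr17:51907096-51907395: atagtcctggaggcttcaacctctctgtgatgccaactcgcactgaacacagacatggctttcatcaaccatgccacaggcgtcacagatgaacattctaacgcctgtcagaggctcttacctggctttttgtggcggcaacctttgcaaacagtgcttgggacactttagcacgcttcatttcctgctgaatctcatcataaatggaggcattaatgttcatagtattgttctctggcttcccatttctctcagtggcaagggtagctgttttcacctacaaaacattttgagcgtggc
BUR intron of Lgr5, chr10:115019487-115019786: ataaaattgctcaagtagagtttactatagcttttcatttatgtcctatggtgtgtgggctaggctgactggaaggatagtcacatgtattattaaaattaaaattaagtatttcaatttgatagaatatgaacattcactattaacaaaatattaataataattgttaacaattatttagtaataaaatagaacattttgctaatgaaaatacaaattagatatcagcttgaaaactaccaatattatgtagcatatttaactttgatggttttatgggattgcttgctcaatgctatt
BUR intron of Itga6, chr2:71642816-71643115: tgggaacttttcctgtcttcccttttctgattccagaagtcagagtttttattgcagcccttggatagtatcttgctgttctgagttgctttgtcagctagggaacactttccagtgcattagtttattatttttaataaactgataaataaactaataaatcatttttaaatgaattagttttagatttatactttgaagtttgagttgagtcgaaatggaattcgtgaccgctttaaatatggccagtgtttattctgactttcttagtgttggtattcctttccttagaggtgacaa
BUR intron of Zfp68, chr5:139050070-139050369: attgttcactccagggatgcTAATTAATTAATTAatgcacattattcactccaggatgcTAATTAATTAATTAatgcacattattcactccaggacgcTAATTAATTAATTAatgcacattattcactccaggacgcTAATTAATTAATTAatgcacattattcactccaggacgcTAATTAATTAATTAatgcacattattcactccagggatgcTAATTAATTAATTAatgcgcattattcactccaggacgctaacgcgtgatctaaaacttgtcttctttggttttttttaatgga
BUR downstream of Akap13, no skin peak, chr7:82908105-82908404: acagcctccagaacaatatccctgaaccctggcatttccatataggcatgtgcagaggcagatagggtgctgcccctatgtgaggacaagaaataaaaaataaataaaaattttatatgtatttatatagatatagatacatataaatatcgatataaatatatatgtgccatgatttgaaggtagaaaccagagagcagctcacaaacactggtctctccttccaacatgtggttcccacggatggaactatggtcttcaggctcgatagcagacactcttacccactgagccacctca
BUR upstream of Lingo1, no skin peak, chr9:56561263-56561562: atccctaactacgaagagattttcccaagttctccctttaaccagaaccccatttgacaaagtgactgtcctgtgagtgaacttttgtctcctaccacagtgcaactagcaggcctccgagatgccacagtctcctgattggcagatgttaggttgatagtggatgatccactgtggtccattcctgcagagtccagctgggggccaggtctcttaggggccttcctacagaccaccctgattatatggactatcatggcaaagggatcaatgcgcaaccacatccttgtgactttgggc

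These windows differed in ATTA more than in the palindrome. The Zfp68 window held 18 copies of TAATTA, the Col12a1 and Ces1e windows 4 each, and the other 6 none. The Nanog and Lgr5 windows, with no TAATTA, held 15 and 14 copies of ATTA or its complement TAAT, the Itga6 window 5, whereas the Akap13 and Lingo1 windows held 0 and 1. The Satb1 exon stood apart from the other bound windows with an AT content of 53.0% and 2 such copies. Over the whole classes the median was 13 such copies for bound BURs and 9 for BURs in neither list. The Akap13 and Lingo1 windows thus lay far below the usual count of BURs in neither list.

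Among the physical properties of a BUR, the strength of SATB1 binding on naked DNA went furthest with its occupancy in skin. The median in vitro fold enrichment was 10.1 for bound BURs, 8.70 for BURs in 1 skin list and 5.76 for BURs in neither, a ratio of 1.75 between bound and neither. With each skin list alone the ratio was 1.70 ± 0.00801 (SD, n = 2). Across deciles (10 parts of about equal size) of the map by in vitro fold, the share of BURs bound went from 0.462% in the weakest to 10.5% in the strongest. Even in the strongest decile, where the in vitro fold was at least 12.3, most BURs had no skin peak in both lists. Within the bound BURs the in vitro fold and the mean skin fold had a Spearman correlation of 0.23, over BURs that share all libraries.

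Bound BURs were also longer and held slightly less A and T. The median length was 513 bp for bound BURs, 491 bp for BURs in 1 list and 435 bp for BURs in neither, a difference of 78 bp (75.5 ± 0.707 bp with each list alone, SD, n = 2). Length and in vitro fold go together in a peak list, and within quintiles of the in vitro fold the length difference averaged 4.9 bp, while within quintiles of length the ratio of in vitro folds was 1.24. The median AT content over the BUR was 67.9% for bound BURs, 68.8% for BURs in 1 list and 70.8% for BURs in neither, a difference of -2.88 percentage points (-2.72 ± 0.00987 with each list alone, SD, n = 2). The share bound was 5.63% and 5.78% in the lowest 2 deciles of AT content and 1.33% in the highest. Over the 300 bp at the summit the difference was smaller, 70.3% against 71.7%, or -1.33 percentage points.

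**Figure D1:**
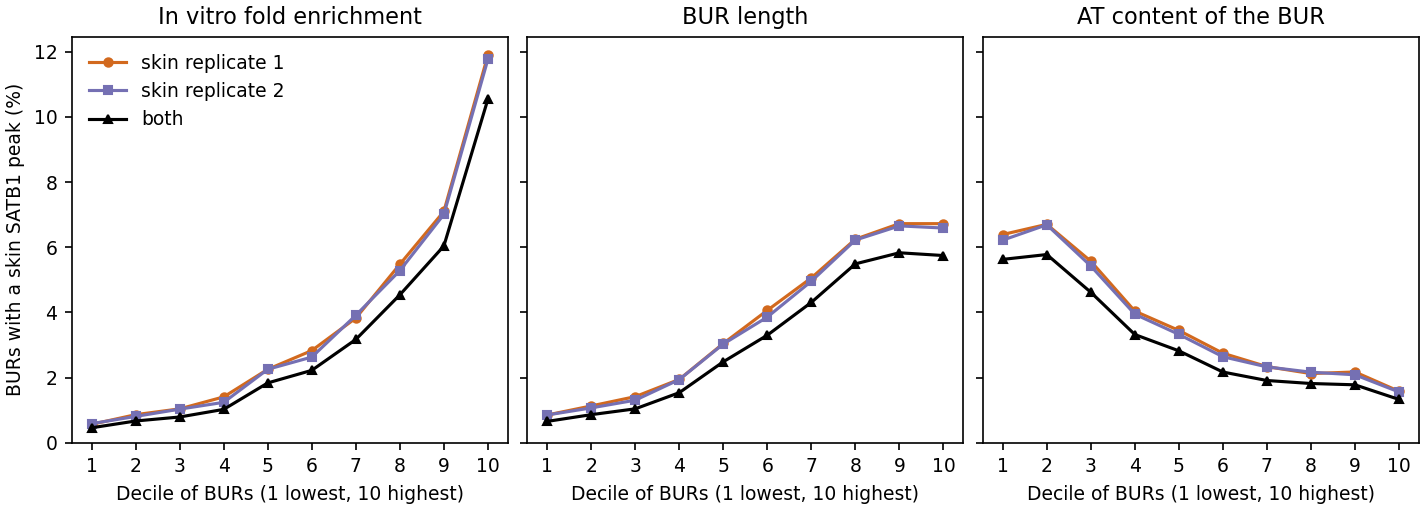
Percentage of BURs with a skin peak in both lists (y axis) in each decile of the BUR map (x axis) by in vitro fold enrichment, BUR length and AT content, with points for each skin list alone. The share goes from 0.462% to 10.5% along in vitro fold, levels off at 5.83% and 5.75% in the longest 2 deciles, and is lowest, at 1.33%, in the decile with the highest AT content.

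A higher AT content over the BUR thus went with lower skin occupancy, apart from a near tie at the lowest AT contents. The letters within the AT-rich window were compared next. The core ATTA is the recognition letter set of many homeodomain proteins, a class to which SATB1 belongs, and TAATTA is a palindrome made of ATTA and its complement TAAT overlapping each other. TAATTA was found in 68.1% of bound windows, 39.1% of windows in neither, 40.2% of all BUR windows and 10.7% of 127806 windows of 300 bp set every 20 kb along the genome. Copies were counted with overlaps, and a palindrome, which reads alike on both strands, once. The mean number per window was 1.76 for bound BURs, 1.26 for BURs in 1 list and 0.549 for BURs in neither. ATTA, counted on both strands, averaged 13.6, 12.5 and 8.85 copies in the same classes. The longer palindrome TTAATTAA, which holds TAATTA, was in 28.6% of bound windows, 6.92% of windows in neither, 7.75% of all BUR windows and 1.39% of genome windows. Simple AT-rich repeats went the other way. TAGATAGA, on both strands, was in 2.31% of bound windows and 11.4% of windows in neither (11.0% of all BURs, 1.49% of the genome). TATATATA was in 3.47% of bound windows and 9.42% of windows in neither (9.18% of all BURs, 2.76% of the genome). Windows of bound BURs were thus dense in ATTA and TAATTA rather than in AT-rich repeats. Of BURs with TAGATAGA, however, 65.9% had 31 bases at the summit that occur more than once in the genome, against 17.1% of all BURs. Unique matches alone were kept in the alignment, and its part in the low share of these repeats was not tested. The longest stretch on 1 strand lacking either G or C was 38 bp at the median in bound windows and 40 bp in the windows of BURs in neither list, and the longest run of A and T alone was 17 bp in both.

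The share of BURs bound in skin went up with each further TAATTA in the window. Of 138747 BURs with no TAATTA, 1.66% were bound. With 1 copy the share was 3.08%, with 2 copies 5.78%, with 3 copies 10.8% and with 4 copies 22.0%. Of 855 BURs with 5 copies 37.2% were bound, of 493 with 6 copies 49.7%, of 236 with 7 copies 61.02%, and of 187 with 8 or more 67.9%. Each skin list alone gave the same order, from 2.06% and 2.01% without TAATTA to 70.1% and 73.3% at 8 or more. The step was present at every in vitro strength: in the weakest quintile by in vitro fold 0.482% of BURs without TAATTA and 14.4% of those with 4 or more were bound, and in the strongest quintile 4.07% and 48.0%. It was present at every AT content too, from 2.03% against 47.7% in the quintile lowest in AT to 1.57% against 16.6% in the quintile highest. BURs with many TAATTA are few, and 2309 of the 7236 bound BURs held none.

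Some of these windows lie in repeated sequence, where a short read may match several places. The 31 bases at the summit occurred more than once in the genome in 17.1% of all BURs and in 10.1% of bound BURs. Among BURs whose 31 bases occur once, the share bound still went from 1.89% without TAATTA to 63.8% at 8 or more. Without BURs that overlap a skin CTCF peak it went from 1.54% to 67.2%.

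**Figure D2:**
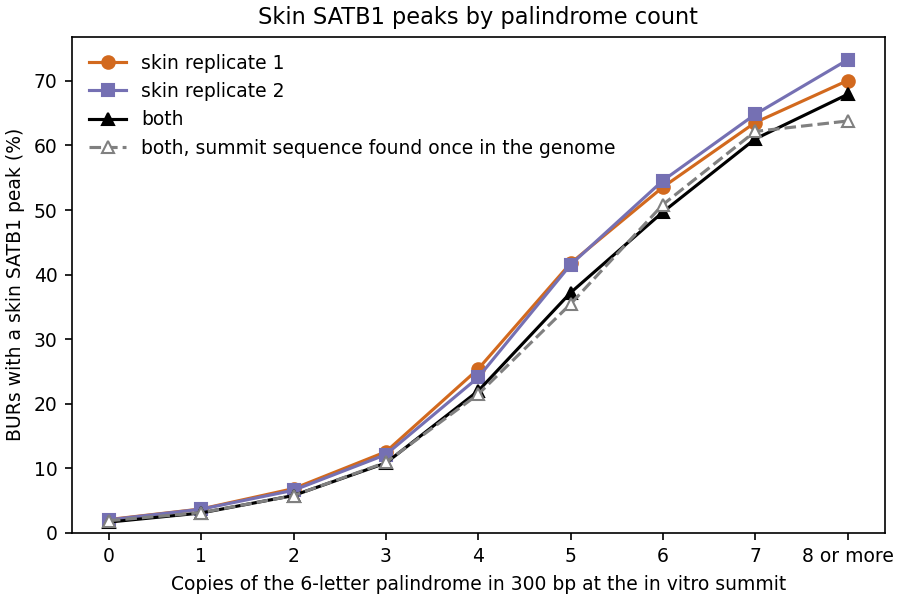
Percentage of BURs with a skin SATB1 peak (y axis) against the number of TAATTA in the 300 bp at the in vitro summit (x axis), for each skin list, for both together and for both among BURs whose 31 summit bases occur once in the genome (dashed). The share in both lists goes from 1.66% without TAATTA to 67.9% at 8 or more, and the dashed line ends at 63.8%.

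The thymus and brain lists, which are longer, also went up with TAATTA, at a higher level, except that brain replicate 2 was level between 5 copies (67.6%) and 6 or more (67.5%). Without TAATTA 10.2% and 8.76% of BURs had a thymus peak and 29.2% and 26.7% a brain peak. With 6 or more the shares were 64.3% and 80.2% in thymus, 75.8% and 67.5% in brain and 59.5% and 61.03% in skin. At 6 or more TAATTA the 3 tissues thus lay closer together in percentage points than without TAATTA, although the skin lists are the shortest.

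Words of 8 letters were then counted without a choice of motif, each with its reverse complement. Of 837 words present in at least 5% of either class, 64 were at least 2 times as frequent in bound windows and 17 at most 0.5 times as frequent. ATTA or TAAT was in 60 of the 64, in none of the 17 and in 291 of all 837 words (34.8%). ATTAAGTA was in 16.5% of bound windows and 3.99% of windows in neither, ACTTAATA in 16.6% and 4.05%, and ATTATTAG in 20.6% and 5.92%. These windows come in part from repeated sequence and are not independent of each other.

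TAATTA was concentrated at the summits themselves. Around the summits of skin peaks on a BUR, its density within 50 bp was 12.4 per kb in both lists, against 0.543 and 0.549 per kb more than 500 bp away. Around the summits of skin peaks off any BUR it was 4.34 and 4.35 per kb, against 0.400 and 0.394. At the in vitro summits of BURs with no skin peak it was 2.63 per kb, against 0.547 farther out. Within 50 bp, skin peaks off the map were therefore less dense in the palindrome than those on it, and denser than the BURs left without a skin peak. Over 300 bp this last order did not hold for the share of windows with TAATTA, which was 29.8% and 31.4% off the map and 39.1% for BURs in neither.

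**Figure D3:**
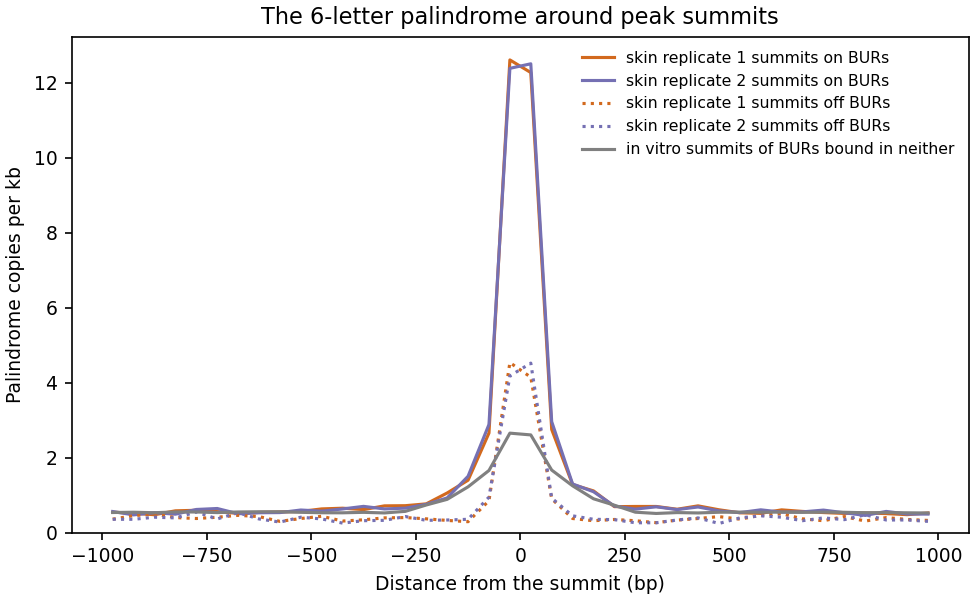
Number of TAATTA per kb (y axis) in steps of 50 bp against the distance from the summit in bp (x axis), for skin summits on BURs (solid) and off BURs (dotted) in each list and for in vitro summits of BURs in neither list (grey). Within 50 bp the skin summits on BURs average 12.4 per kb and the in vitro summits 2.63 per kb, and beyond 500 bp all lines lie between 0.394 and 0.549 per kb on average.

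By place in the genome, bound BURs differed little from the rest. The centre lay in a protein-coding gene for 34.3% of bound BURs and 31.8% of BURs in neither, a difference of 2.52 percentage points (2.60 ± 0.198 with each list alone, SD, n = 2). Nearly all of these were intronic, 33.2% against 30.7%, and 1.17% against 1.13% lay in an exon. The median distance to the nearest protein-coding start was 107 kb for bound BURs and 136 kb for BURs in neither. The share bound was 3.67% within 2 kb of a start and 2.69% beyond 1 Mb. By chromosome it went from 2.73% on chromosome 3 to 3.71% on X, with 3.62% on 9. Apart from Satb1, with 10 bound of 19 BURs in 97.1 kb, the genes with the most bound BURs were long ones, most of them known from neurons: Lrp1b, a lipoprotein receptor gene, with 13 of its 447 BURs bound, Il1rapl1, a synaptic receptor gene, with 12 of 236, Ptprd, a receptor phosphatase gene, with 12 of 422, Gpc5, a glypican gene, with 11 of 245, and Mdga2, a synaptic adhesion gene, with 10 of 168. In Lrp1b and Ptprd the share bound was below the 3.12% of the whole map, at 2.91% and 2.84%.

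Bound BURs were spread through the genome. The median distance from one bound BUR to the next nearest was 102 kb, while the nearest BUR of any class lay at 3.50 kb from a bound BUR and 3.03 kb from a BUR in neither. A BUR bound in both lists lay within 100 kb of 49.5% of bound BURs and 50.3% of BURs in neither, a difference of -0.820 percentage points (-0.659 ± 0.136 with each list alone, SD, n = 2). Within 20 kb the order turned, 13.7% against 13.4%, a difference of 0.28 percentage points, so neither direction was stable. Bound BURs had fewer BURs of any class around them, and the share of those neighbours that were bound was 3.93% around bound BURs and 2.85% around BURs in neither at 20 kb, and 3.32% against 2.89% at 100 kb. Without BURs in repeated sequence the difference at 100 kb was -2.79 percentage points. Of 2581 windows of 1 Mb with a BUR, 331 held no bound BUR and the median was 2. The highest count, 22 of 125, was in chr9:3000001-4000000. Next came chr6:69000001-70000000, in the immunoglobulin kappa variable genes, with 17 of 132, and chr7:22000001-23000000, in the Vmn1r vomeronasal receptor genes, with 17 of 93. How alike the gene copies in these windows are was not measured.

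Nearly all BURs bound in skin also carried SATB1 in thymus and brain. Of the bound BURs, 94.1% and 95.0% had a thymus urea SATB1 peak (replicates 1 and 2) and 94.4% and 93.5% a brain one, against 11.2%, 9.34%, 34.7% and 31.6% of BURs in neither skin list. All 4 thymus and brain lists had a peak at 6646 bound BURs (91.8%), 1 to 3 of them at 306 and none at 284 (3.92%). In the other direction, 25.9% of the 25639 BURs in all 4 thymus and brain lists were bound in skin. Over BURs with a thymus peak in both lists, by quintiles of the mean thymus fold, the share bound in skin went from 1.79% in the weakest to 81.0% in the strongest, and over BURs with a brain peak in both lists, by quintiles of the mean brain fold, from 1.09% to 30.0%. Among BURs in all 4 lists, those also bound in skin held 1.74 TAATTA on average and those in neither skin list 0.903, with a median in vitro fold of 10.2 against 8.15.

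The bound BURs without a thymus or brain peak were taken in parts. Those without a skin CTCF or standard SATB1 peak had much the same letters as the bound BURs in all 4 lists. Those without a skin CTCF peak recurred more often in the genome. Of the 284, 104 had a skin CTCF peak. The 170 with neither a skin CTCF nor a standard SATB1 peak held 1.81 TAATTA on average, beside 1.74 for the bound BURs in all 4 lists, with a median in vitro fold of 10.3 beside 10.2 and a median length of 513 bp beside 514 bp. Of the 180 without a skin CTCF peak, 161 (89.4%) had summit bases that occur more than once in the genome, against 6.29% of the bound BURs in all 4 thymus and brain lists. They were clustered: 70 of the 180 lay in 3 windows of 5 Mb, 42 of them in chr7:20000001-25000000 with its 64 Vmn1r genes, 16 in chrX:50000001-55000000 and 12 in chr12:20000001-25000000. The part of repeated sequence in these skin peaks was not tested. A skin CTCF peak overlapped 243 bound BURs (3.36%) and 0.418% of BURs in neither. Those 243 had a median AT content of 63.0% at the summit, and 24.3% of them held TAATTA, against 70.7% and 69.6% for the other bound BURs.

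The 10 bound BURs with the highest skin fold had mean folds of 33.3 to 35.2 over the lists. They were nearest to Nanog, a pluripotency factor gene, Col12a1, a collagen gene, Ces1e, a carboxylesterase gene, Klhl13, Pcdh15, a protocadherin gene, Murc, Bcl11a, a transcription factor gene, Ppp2r2b, Ube2e2, a ubiquitin-conjugating enzyme gene, and Foxd3, a neural crest factor gene. The BUR 9.62 kb upstream of Nanog had skin folds of 35.1 and 35.4, and that in an intron of Ces1e 34.3 and 35.4. The summit bases of 6 of the 10 recurred in the genome, from 80 times (Klhl13, Ube2e2) to 712 times (Bcl11a), and those at Nanog, Pcdh15 and Ube2e2 carried a skin CTCF peak. At Pcdh15 neither thymus nor brain had a urea SATB1 peak. At the other end, the 5 BURs with the highest in vitro fold and no skin peak lay near Akap13, Lingo1, Klhl2, Psg28 and in an intron of Mbnl2. Their in vitro folds were 33.3 to 35.3, above those of the 10 bound BURs, which were 7.96 to 17.3. None of the 5 held TAATTA, which was also absent from 138747 of all 232068 BURs. Among the 10 bound BURs, those near Nanog, Klhl13, Pcdh15, Murc, Ppp2r2b and Ube2e2 held none either. None of these 5 had a urea SATB1 peak in thymus or brain either. Their in vitro −log10 q was 1104 to 4108, beside a median of 26.6 over all BURs of the single map.

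Turning to epidermal genes, BURs near them were bound about as often as BURs near any protein-coding gene. Of 1671 BURs within 50 kb of 311 epidermal genes, 61 (3.65%) were bound (4.10% ± 0.212 with each list alone, SD, n = 2), beside 3.36% of the 119944 BURs within 50 kb of any protein-coding gene. In replicate 1 alone the order turned, 3.95% against 3.98%, and in replicate 2 alone it was 4.25% against 3.91%. A bound BUR lay within 50 kb of 88 of the 311 genes (28.3%), beside 23.4% of all protein-coding genes. The median number of BURs in reach was 7 per epidermal gene and 6 per protein-coding gene. Of the 61, 10 lay in the gene Satb1, described last, and without it 51 of 1641 (3.11%) were bound. The comparison lists gave 49 of 1868 (2.62%) for genes of cortical neurons and 17 of 365 (4.66%) for thymocyte genes, the latter 7 of 335 (2.09%) without Satb1, a change of more than 1.5 times. Of the 61, 44 had peaks in all 4 thymus and brain lists, 7 in 1 to 3 and 10 in none. All 10 in none carried a skin CTCF peak. Skin folds of the 61 ran from 4.19 to 29.6 and from 4.09 to 29.1, and 59.0% held TAATTA.

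**Figure D4:**
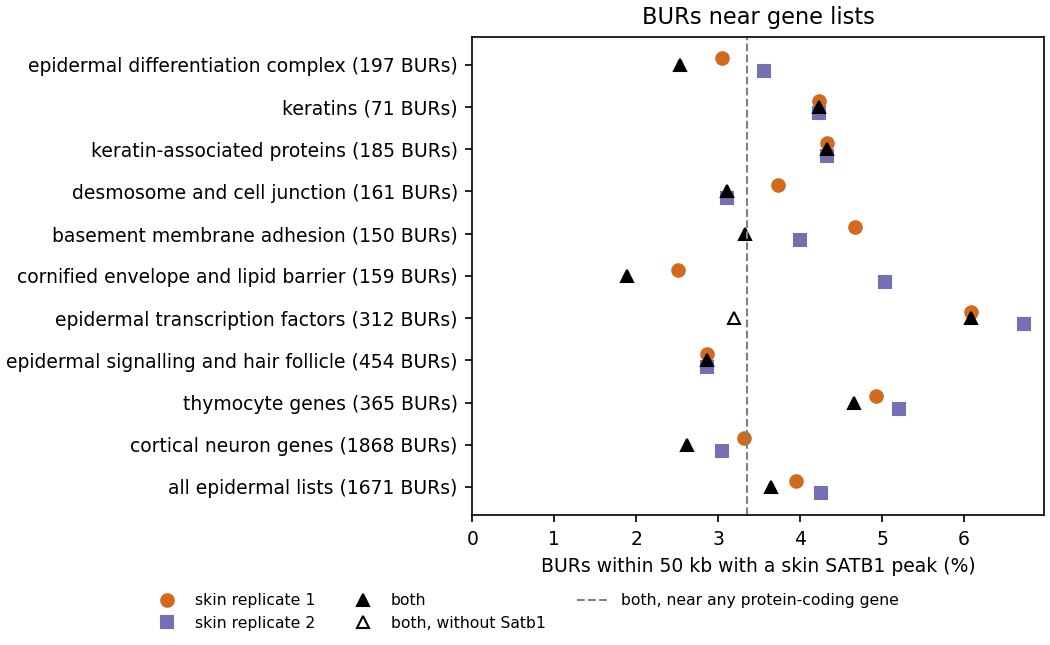
Percentage of BURs within 50 kb of the genes of each list that were bound (x axis) by list (y axis), for both skin lists together and for each alone, with the value for all protein-coding genes. The transcription factor list, at 6.09%, is highest and drops to 3.19% without Satb1, and the list for cornified envelope and lipid barrier spans 1.89% to 5.03% between definitions.

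In the epidermal differentiation complex, 5 of 197 BURs (2.54%) were bound, and each lay within 50 kb of several genes of the complex. The strongest, chr3:92491390-92491919, lay 0.258 kb upstream of Lce1d, within 50 kb of the late cornified envelope genes Lce1a1, Lce1a2, Lce1b, Lce1c, Lce1d and Lce1e, with skin folds of 25.1 and 23.1. The BUR beside the small proline-rich genes Sprr1a and Sprr3, which encode cross-linked envelope proteins, had 17.2 and 17.8. The one in the Sprr2 cluster had 12.9 and 14.1, but its summit bases occur 87 times in the genome. The others lay by Crnn and Flg2 (5.45 and 5.73) and in the S100a3 to S100a8 run (9.15 and 8.43). The single lists gave 6 (3.05%) and 7 (3.55%) BURs, so the share lay near the 3.36% of all protein-coding genes. Of the 65 genes, 24 (36.9%) had a bound BUR within 50 kb, beside 23.4% of all protein-coding genes. These 24 share the 5 bound BURs, and the genes of the complex had a median of 11 BURs in reach. For all protein-coding genes that median was 6, so the shares of genes are not like for like. The S100a BUR lay at chr3:90428803-90429105, apart from the others, which lay between chr3:92158260 and chr3:92969559.

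Of the keratins, the intermediate filament proteins of epithelia, 13 of 50 genes had a bound BUR in reach, and 3 of 71 BURs (4.23%) were bound, in each list alike. All 3 lay in the type I cluster on chromosome 11. One, chr11:100077637-100078320, lay 8.78 kb upstream of Krt14, the basal-layer keratin, and within 50 kb of Krt9, Krt16, Krt17 and Krt42. Its folds were 19.1 and 18.8. A BUR 4.02 kb upstream of Krt222 had 10.5 and 11.7, and one 5.58 kb from Krt10, the suprabasal keratin, had 10.1 and 8.39 and also carried a skin CTCF peak. Of BURs near keratin-associated proteins, the matrix of hair, 8 of 185 (4.32%) were bound, among them chr16:88870473-88871040, 0.818 kb upstream of Krtap16-2 and in reach of Krtap15, Krtap16-1, Krtap16-4 and Krtap16-5 (22.3 and 21.0), and one in reach of Krtap16-7 (25.8 and 25.4). Each of the 3 keratin BURs was thus within 50 kb of more than 1 keratin gene. On chromosome 16, Krtap15, Krtap16-1, Krtap16-2, Krtap16-4 and Krtap16-5 had 3 bound BURs each in reach.

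For adhesion genes the counts were 5 of 161 BURs (3.11%) for desmosome and cell junction genes and 5 of 150 (3.33%) for the basement membrane. Among junction genes the bound BURs lay near Evpl, encoding envoplakin (15.9 and 15.4), Gjb2 and Gjb6, encoding connexins (12.5 and 12.2), Dsc1 (10.1 and 8.39), Dsc3 (8.38 and 5.32) and Jup, encoding plakoglobin (5.87 and 5.32). The summit bases of the Dsc1 BUR occur 45 times in the genome. In the basement membrane list the bound BURs at Fras1, Col17a1, Itga6 and Lama3 had folds between 5.12 and 9.01. Of genes for the cornified envelope and lipid barrier, 3 of 159 BURs (1.89%) were bound, with 2.52% and 5.03% in the single lists. They lay near Elovl4, a fatty acid elongase gene (19.1 and 18.1), Cdsn, encoding corneodesmosin (9.82 and 10.6), and in Spink5, a protease inhibitor gene (7.76 and 10.6).

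Among signalling and hair follicle genes 13 of 454 BURs (2.86%) were bound, the same number in each list. An intron of Lgr5 had 23.9 and 20.2, and a BUR upstream of Wnt5a, a Wnt ligand gene, 23.6 and 23.4. A BUR in an intron of Areg, encoding the EGF receptor ligand amphiregulin, was also within 50 kb of Ereg (20.4 and 19.1). Tslp, a keratinocyte cytokine gene, and Bmp4, a BMP ligand gene, had bound BURs with 18.2 and 14.02 and with 11.8 and 16.6. Of the 37 genes, 13 had a bound BUR in reach, most of them 1. The folds of the 2 lists were close at Wnt5a and farther apart at Tslp and Bmp4.

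The transcription factor list had the highest share, 19 of 312 BURs (6.09%), of which 10 were in Satb1. Without Satb1, 9 of 282 (3.19%) were bound, close to the 3.36% of all protein-coding genes. The 9 included an intron of Grhl2 (19.9 and 14.6), and BURs near Prdm1 (16.4 and 15.0) and Sox9 (15.5 and 13.7), all regulators of epidermal or follicle cells. A BUR 47.9 kb downstream of Elf3, an epithelial ETS factor gene, had 22.3 and 21.0 but lay at an AT content of 44.8% with a skin CTCF peak and a standard ChIP-seq SATB1 peak, and no thymus or brain urea peak. Of the comparison genes, Bach2, Dntt, Runx3, Tox and Ccr9 from the thymocyte list had bound BURs with folds from 7.55 to 17.4. The strongest bound BURs of Cntn5, Syt1, Gad2 and Nrxn3 from the neuron list had folds from 19.2 to 28.3. The highest folds of the named thymocyte genes other than Satb1 lay below those of the epidermal genes, and those of the neuron genes reached their level. These are highest values from 7 bound BURs (thymocyte, without Satb1), 49 (neuron) and 61 (epidermal), so they do not rank the lists.

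The gene Satb1 itself stood apart from the rest of the map, and it was examined after its value was seen. Its span, chr17:51875512-51972615 on the minus strand, held 19 BURs. The 10 on a coding exon all had peaks in both skin lists, and the 9 not on a coding exon had a peak in neither. Skin folds at the 10 ran from 5.49 to 29.6 in replicate 1 and from 5.61 to 29.1 in replicate 2. Every skin SATB1 peak in the span, 10 in each list, lay on a coding exon, and together they touched 10 of the 11 exons, although coding sequence makes up 2.388 kb, or 2.46%, of the span. These BURs had an AT content of 46.6% to 60.0% and no TAATTA. The skin CTCF list had 11 peaks in the span, 10 of them on the same exons, with folds up to 32.3. Thymus urea SATB1 had 6 and 8 peaks in the span with 1 and 0 on a coding exon, brain urea SATB1 had 6 and 9 with none, and thymus urea CTCF had 2 with none. The in vitro map came from thymocyte DNA bound by recombinant SATB1 in solution, not from chromatin. It too had 10 of its 19 peaks in the span on coding exons, with folds of 3.88 to 15.2. The exon peaks were thus found in the in vitro map and with both antibodies in skin chromatin, but hardly in thymus or brain chromatin. What produced them was not tested. Across the map 24 bound BURs lay on a coding exon (0.332%, against 0.130% of BURs in neither), and 10 of the 24 were those of Satb1.

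**Figure D5:**
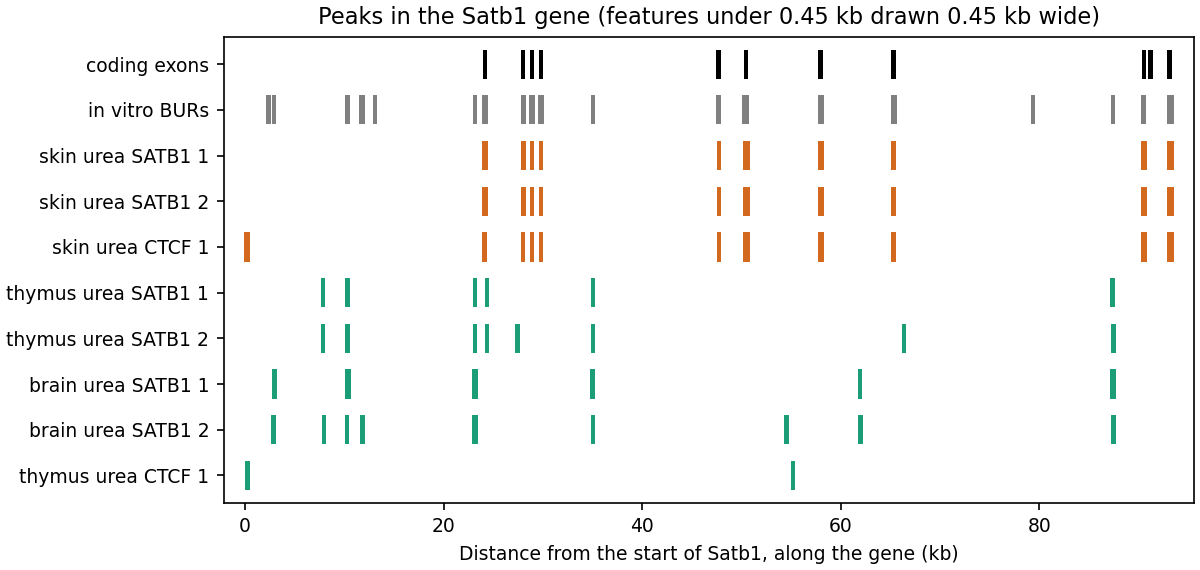
Peaks of the urea lists and in vitro BURs along the Satb1 gene (x axis, distance from its start in kb; lists on the y axis) beneath its coding exons, with narrow features widened as the title says. The 10 skin SATB1 peaks of each list and 10 of 11 skin CTCF peaks stand on coding exons, and 1 and 0 of the thymus urea SATB1 peaks do.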

How the data were processed

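The series holds 11 peak lists with a file, in mm9. Per the submitters' processing notes, reads were checked with FastQC, aligned with Bowtie2 2.3.1 and peaks were called with MACS2 2.2.7. Per the study's methods, unique matches alone were kept, and 1 list was deposited per library. Whether an input library entered the calls is not given in the sources used here. The values used are the authors' deposited fold enrichment, a ratio to local background at the summit, and the deposited −log10 p and −log10 q. A deposited score column of the caller was read but supports no result. The lists carry no counts, so depth is unknown.

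Peaks were read with Python 3.11.15, numpy 2.4.6 and pandas 2.3.3, and bases from the GENCODE release M1 genome (mm9, NCBIM37) with pysam 0.24.0 and samtools 1.23.1. BURs on chromosomes 1 to 19 and X were split by overlap of at least 1 bp with the 2 skin lists. Length, AT content, letters in 300 bp at the summit, place against protein-coding genes, distance to other bound BURs, and share bound within 50 kb of gene lists were described without a test. The scripts were tested on simulated data. Alternatives changed the overlap rule, the q threshold, the lists, the distances, the annotation and, after seeing the data, left out BURs under skin CTCF peaks, BURs whose 31 summit bases recur in the genome, and Satb1. The motif letters and the look at Satb1 were also chosen after seeing the data.

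The members, the 8 epidermal lists (epidermal differentiation complex, keratins, keratin-associated proteins, desmosome and cell junction, basement membrane, cornified envelope and lipid barrier, transcription factors, signalling and hair follicle) and the 2 comparison lists (thymocyte, cortical neuron) were chosen with earlier results of these data known. Older symbols were matched through RefSeq names, and 1 thymocyte gene was not among the protein-coding genes. Genes named are, per list, those with a bound BUR within 50 kb, up to the 6 with the highest mean skin fold, then the 10 bound BURs of highest skin fold outside regions of all 11 lists, the 5 genes with the most bound BURs, and the 5 BURs of highest in vitro fold with no skin peak. Krt10, Sprr1a, Sprr3, Crnn, Flg2, the S100a and Sprr2 runs and the Zfp68 window were added after their values were seen. Some genes that the rule names are not reported here.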

Additional observations from a re-analysis of the deposited data

How the results depend on the processing

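Each difference or ratio between bound BURs and BURs in neither kept its sign under every alternative run except for spacing, where 20 kb in place of 100 kb turned the difference to 0.277 percentage points. The epidermal share, above the 3.36% of all protein-coding genes with both lists, was below the matching share with skin replicate 1 alone (3.95% against 3.98%) and below 3.36% without Satb1. With the BUR summit required inside the skin peak, the share bound was 2.99%, the length difference 76 bp, the in vitro fold ratio 1.77, the AT difference -3.05 percentage points and the gene difference 2.84 percentage points. With at least 50% of the BUR covered by the skin peak, the share was 2.55%. A −log10 q of at least 5 in the BUR and skin lists gave 77 bp and a ratio of 1.73. Without BURs in regions of all 11 lists the AT difference was -2.85. Within quintiles of in vitro fold the length difference was 4.9 bp and the AT difference -2.78, and within quintiles of length the AT difference was -3.54 and the fold ratio 1.24. Over 300 bp at the summit the AT difference was -1.33. With all annotated genes the gene difference was 2.99 percentage points. In alternatives chosen after seeing the data, leaving out BURs under a skin CTCF peak gave a share of 3.03%, a ratio of 1.77, an AT difference of -2.74, a spacing difference of -0.987 and an epidermal share of 2.92%. Leaving out BURs whose summit bases recur gave 3.38%, 93 bp, 1.86, -3.27, 2.99, -2.79 and 4.37% for share, length, ratio, AT, genes, spacing and epidermal share. Without Satb1 the epidermal share was 3.11%. Using 1 skin list at a time, the ranges were 3.64% to 3.71%, 75 to 76 bp, 1.70 to 1.71, -2.73 to -2.72, 2.46 to 2.74, -0.755 to -0.563 and 3.95% to 4.25% in the same order. The cause of these shifts was not tested beyond the construction of each setting. No paired analysis was possible because no result comes from a test. Unknown depth limits all shares: a BUR without a listed peak may lie below the calling threshold of these libraries.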

Other observations

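Skin SATB1 peaks off the BUR map were examined as well. Of the peaks on the chromosomes used, 2355 windows in replicate 1 and 2159 in replicate 2 lay off any BUR, and TAATTA was in 29.8% and 31.4% of them, against 9.69% and 10.0% of windows 2 kb away. Leaving out those under a skin CTCF or a standard ChIP-seq SATB1 peak, TAATTA was in 47.4% of 1347 and 48.8% of 1279 windows, with a mean AT content of 61.3% and 61.4%, beside 68.9% in both lists for skin peaks on BURs. TTAATTAA was in 20.0% and 19.8% of these windows. Skin peaks that the in vitro map does not list thus shared the letters of the bound BURs at a lower AT content. Why these sites are not in the map was not tested.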
